A study of Homo sapiens with 32 samples.

Results

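The genes S100A6, S100A10, S100A11, CD44, KRT8, KRT18, KRT19, GPRC5A and COL7A1 were followed through exit from mitosis to ask which of them stay above the level of a cycling culture. They are 9 of the 24242 genes in the deposited table, named by symbol and chosen by their FPKM in these same groups, so every value against the asynchronous culture is a description. HUH7, a long-established cell line from a human hepatoma, was given a pulse of 5-ethynyl uridine (EU), a uridine analogue through which freshly made transcripts can be captured and sequenced. All 6 release groups had been held in 2 mM thymidine for 24 hours, freed for 2 hours and kept in nocodazole, a blocker of the spindle, at 0.06 ug/mL for 16 hours. Rounded mitotic cells were then collected by shake-off, washed, replated and labelled with 0.5 mM EU at 0, 40, 80, 105, 165 or 300 minutes. The comparison group is an asynchronous culture labelled the same way for 40 minutes, with neither block nor shake-off. No label says whether a time marks the start or the end of the pulse. The labels also list 3 asynchronous samples with spike-ins, and whether the asynchronous value, the base of every fold, includes them is not stated. Although 3 samples are listed per release group, the table gives 1 authors' value per transcript and group, so no difference here has a replicate check. The block, the detachment and the stage of the cell cycle cannot be told apart in any comparison with the asynchronous culture.

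The S100 proteins are small calcium-binding proteins with paired EF-hand motifs that bind and modulate other proteins, annexins among them. Keratins are the intermediate filaments of epithelia and assemble only as pairs of an acidic type I and a basic type II chain. KRT8 with KRT18 is the pair of hepatocytes, while KRT19 marks bile duct and progenitor epithelium. CD44 is the main cell-surface receptor for hyaluronan, GPRC5A a membrane receptor induced by retinoic acid, and COL7A1 the collagen of the anchoring fibrils that tie epithelium to the underlying matrix.

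Values are the authors' FPKM, that is, fragments scaled to a length and to library size, and a fold is a ratio of FPKM + 1. Which length the authors used is not stated. All 9 genes had at least 1 FPKM in at least 3 groups and so were among the 22940 genes kept. Transcripts that share a start and an end in the GENCODE annotation but differ in exon length had identical values in 96.3% of 4482 pairs. Pairs with different spans had identical values in 50.1% of 46834 pairs. A value thus rarely separates exon structures within a span, and often does not separate spans. The median of all genes stood at -0.14 on the log2 scale at 0 minutes against the asynchronous culture and at 0.29 at 80 minutes, and lay between these at the other times. Setting the groups to equal medians moved the 0 minute value to 0.19, and quantile normalization moved it to 0.02. With it the counts of genes past 2-fold at 0 minutes went from 3239 higher and 4349 lower to 5271 and 2464 with equal medians, and to 2744 and 2725 after quantile normalization. FPKM show a level relative to other captured RNA, and fewer cells making an RNA cannot be told from less of it per cell.

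The 9 genes ranged from far above the asynchronous culture to near it. S100A6, CD44, GPRC5A and COL7A1 were at least 2-fold above that culture at all 6 times, with lowest folds of 32.1, 8.15, 7.67 and 10.6. Of all genes, 2.73% met that description. KRT19 and S100A11 were also above it at every time, by as little as 1.85-fold and 1.56-fold. Their largest folds were 5.50 at 300 minutes and 3.35 at 105 minutes. S100A10, KRT8 and KRT18 were not: their lowest folds were 0.85, 0.99 and 0.95. Hence 6 of the 9 genes were above the asynchronous culture throughout, a property of 27.2% of all genes. These counts depend on scaling: with equal medians, and likewise after quantile normalization, S100A10 joined the genes above it throughout, for 7 of 9, and S100A11 those 2-fold above it throughout, for 5 of 9. With the median transcript KRT8 joined instead, also for 7 of 9 above it. S100A11, at 1.56, and KRT8, at 0.99, are the members just inside and just outside that line.

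**Figure D1:**
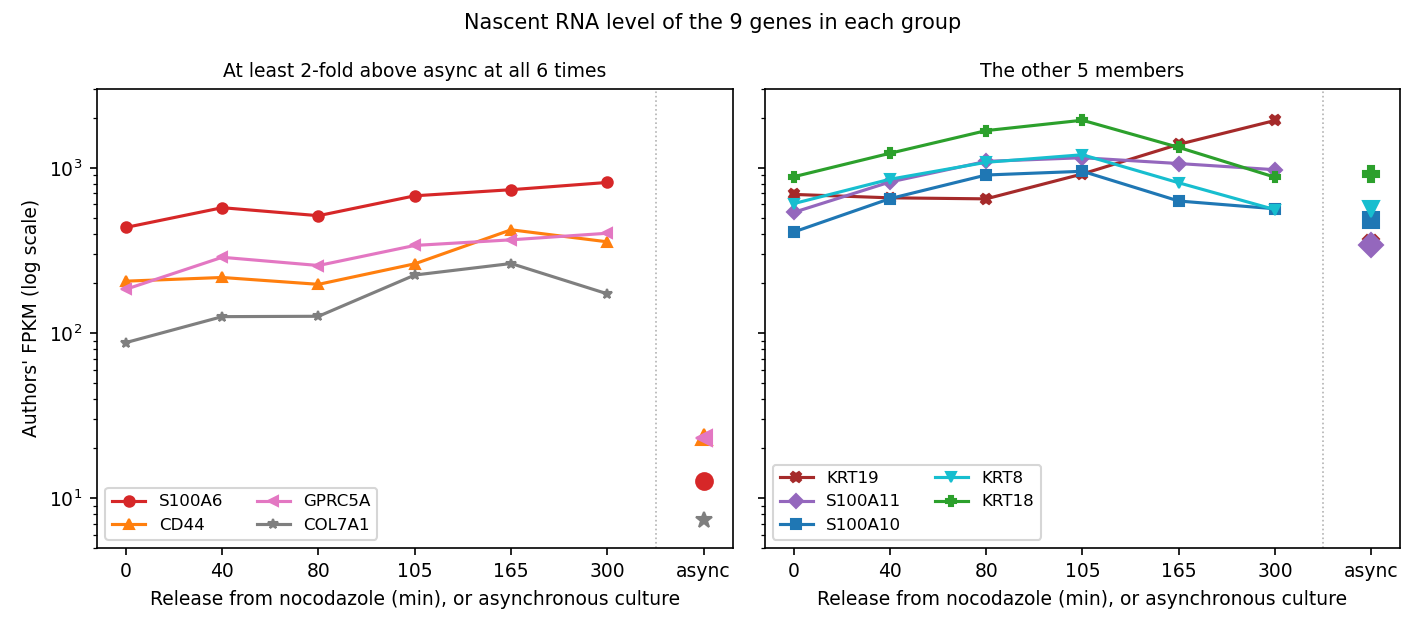
Authors' FPKM (vertical axis, log scale) of the 9 genes in each group, with the release times joined by lines and the asynchronous culture as a separate larger point; each point is 1 authors' value with no error. The left panel shows S100A6, CD44, GPRC5A and COL7A1, all under 25 FPKM in the asynchronous culture; the right panel shows the other 5, all at 343 FPKM or more there.

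Counted at each time, 4 of the 9 genes were at least 2-fold above the asynchronous culture at 0 minutes (14.1% of all genes), 5 at 40 (14.2%) and 5 at 80 minutes (19.4%). The count was 8 at 105 minutes (16.7% of all genes), then 6 at 165 (11.4%) and 6 at 300 minutes (9.84%). None was at least 2-fold lower at any time, as 19%, 15.4%, 10.8%, 9.29%, 8.81% and 8.57% of all genes were at the 6 times in order. Regardless of size, 7 were above the asynchronous culture at 0 minutes (45.1% of all genes), all 9 at 40 (50.4%), 80 (63.5%), 105 (62.8%) and 165 minutes (58.9%), and 7 at 300 minutes (59%). These percentages describe the whole table; the members were chosen on the same contrast. At 105 minutes KRT8 and KRT18 were at 2.12-fold and 2.11-fold, their largest differences, and S100A10, at 1.97-fold, was the only member under the line. After quantile normalization KRT8 and KRT18 stood at 0.76 and 0.78 on the log2 scale there, short of 2-fold, and the count was 6. The count at 0 minutes was 6, not 4, under either scaling, with S100A11 and KRT19 added.

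**Figure D2:**
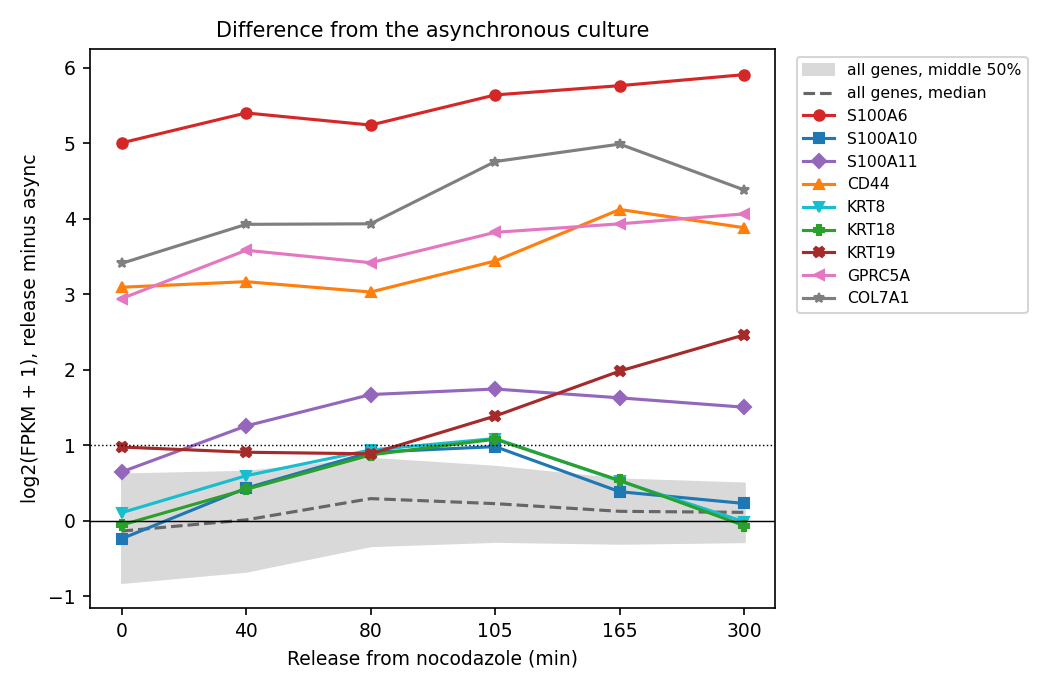
Difference of each gene from the asynchronous culture on the log2(FPKM + 1) scale (vertical axis) at the 6 release times; the grey band holds the middle 50% of all kept genes, the dashed line is their median, and the dotted line marks 2-fold. S100A6, COL7A1, CD44 and GPRC5A lie between 2.94 and 5.91 throughout, KRT19 goes from 0.88 at 80 to 2.46 at 300 minutes, and S100A10, KRT8 and KRT18 arch over 105 minutes and return toward 0.

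S100A6, a calcium-binding protein also called calcyclin, was low in the asynchronous culture, at 12.6 FPKM. It stood at 435 FPKM at 0 minutes, 573 at 40, 513 at 80, 677 at 105, 737 at 165 and 815 at 300 minutes. Every release value was thus above the asynchronous one, and the highest came last. The fold went from 32.1 at 0 to 59.98 at 300 minutes, where S100A6 held rank 10 among 22940 genes; by its lowest fold over the release it held rank 15. Its RefSeq span is 1393 bases, and the asynchronous value corresponds to about 8.08 of the steps in which low values repeat. If a step is 1 read, counting alone gives an error of 35.2% there and 8.18% at 0 minutes, so the fold of S100A6 is the least precise of the 9.

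S100A11, a partner of annexin A1, was at 537 FPKM at 0 minutes, 819.8 at 40, 1093.8 at 80, 1150.9 at 105, 1061 at 165 and 974 at 300 minutes, against 343 in the asynchronous culture. It was highest at 105 minutes and still 2.83-fold above the culture at 300. S100A10, which does not bind calcium and forms a complex with annexin A2 at membranes, was at 408, 650.4, 904, 953, 629 and 565 FPKM at the same 6 times, against 483. It alone of the S100 members was below the asynchronous level at 0 minutes. After equal medians or quantile normalization it was above it there, at 0.12 and 0.37 on the log2 scale.

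Beside each gene list below, the whole table had 14.1% of genes past 2-fold upward and 19% downward at 0 minutes, and 9.84% and 8.57% at 300. The 3 S100 members belong to a family of which 17 genes were kept. At 0 minutes 4 were at least 2-fold above the asynchronous culture and 1 was lower, with a median log2 difference of 0.61 beside -0.14 over all genes. These were 23.5% and 5.88% of the list, and equal medians gave 8 and 1. At 300 minutes 6 were higher and 2 lower. S100A14 stood at 37.0 FPKM at 0 minutes and at 3.01 in the asynchronous culture. S100A3 was at 12.4 FPKM at 0 and 38.8 at 300 minutes against 1.009, and S100A13 at 147 and 171 against 71.5. S100A4, a regulator of cell motility, was at 9.40 FPKM at 0 minutes but 57.8 at 300, against 4.59. S100A9, a granulocyte protein, went the other way, with 2.98 FPKM at 0 minutes against 24.3. S100P stood at 501 FPKM at 0 minutes but also at 432 in the asynchronous culture.

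**Figure D3:**
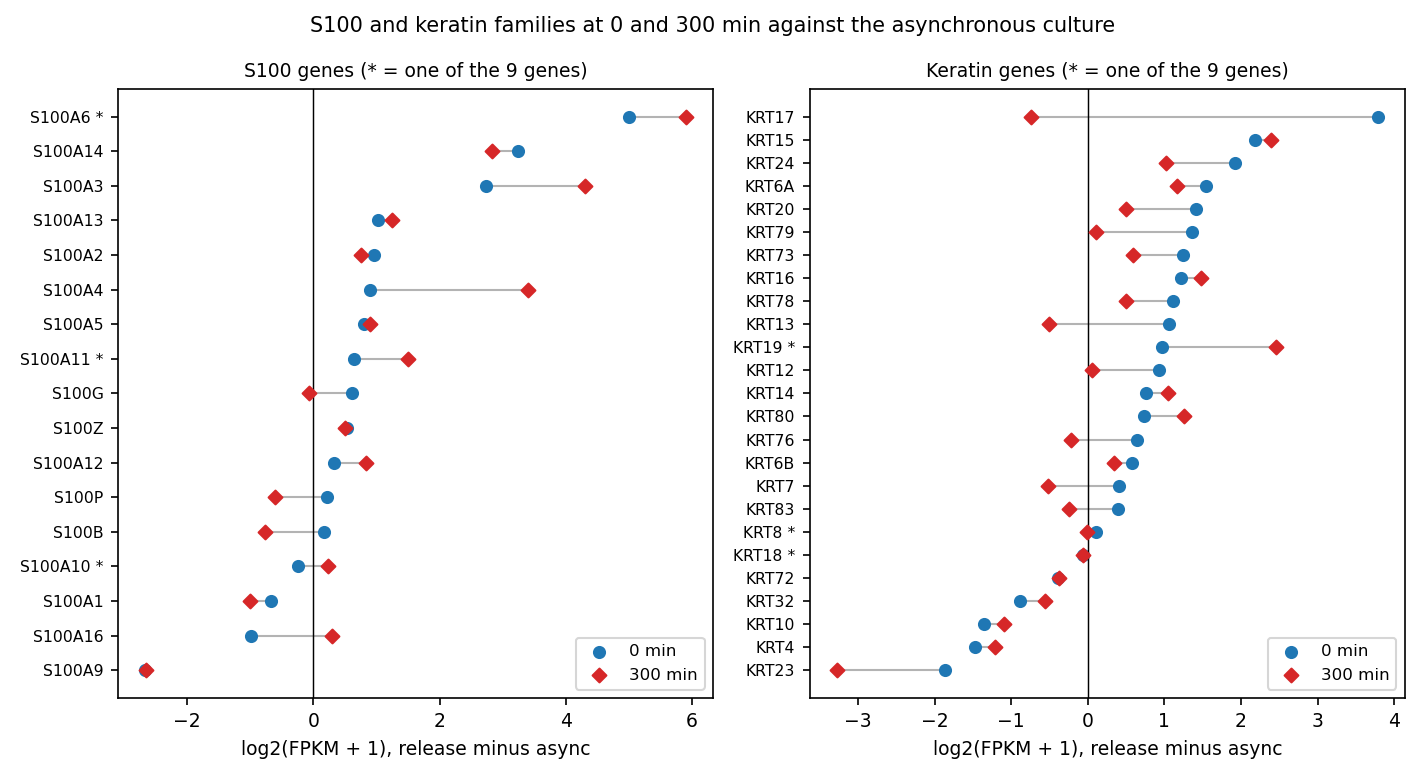
Difference from the asynchronous culture on the log2(FPKM + 1) scale (horizontal axis) at 0 minutes (blue circles) and 300 minutes (red diamonds) for the kept S100 genes (left) and keratin genes (right), ordered by the 0 minute value. S100A6 lies farthest to the right at both times, S100A9 at -2.67 and -2.65, and KRT17 moves from 3.78 at 0 minutes to below 0 at 300.

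Among annexins and other S100 partners, 1 of 16 genes was at least 2-fold higher at 0 minutes and 2 were lower (2 and 1 with equal medians), with 3 and 2 at 300 minutes. Their median log2 difference at 0 minutes was -0.10, but 0.25 with equal medians and 0.15 after quantile normalization. ANXA1, the annexin A1 gene, was at 671 FPKM at 0 minutes, 2065 at 165 and 1370.2 at 300 minutes, while cycling cells had 263, a fold of 2.55 at 0 and 7.83 at 165 minutes. ANXA2, whose protein binds S100A10, was at 1074 FPKM at 0 minutes and 1886 at 105 against 1392. As deposited, ANXA2 and S100A10 were thus both under their asynchronous levels at 0 minutes and both highest at 105. The same held for ANXA3, ANXA6, ANXA8 and ANXA11. ANXA3 was lower at all 6 times, at 138 FPKM at 0 minutes against 715. AHNAK, a giant scaffold protein that binds the S100A10 complex, was 2.53-fold above the asynchronous culture at 105 minutes.

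KRT18, as the mean of its transcripts, stood at 919 FPKM in the asynchronous culture. It was at 882 FPKM at 0 minutes, 1224 at 40, 1679.6 at 80, 1941 at 105, 1329 at 165 and 877 at 300 minutes. Its partner KRT8 was at 607, 852, 1079.7, 1199.7, 812 and 558 FPKM at the same times, against 564.2. Both were therefore within 1.08-fold of the asynchronous level at either end of the release and near 2.1-fold above it in the middle. Of all 36 pairs among the 9 genes, KRT8 and KRT18 had the most similar course, with a root mean square difference of 0.07 on the log2 scale over the 7 groups after each gene was centred on its mean. S100A10 followed, at 0.15 from KRT18 and 0.17 from KRT8.

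KRT8 was read from 4 transcripts with 3 distinct sets of values. The transcript with a span of 9.43 kb stood at 1172 FPKM at 0 minutes, the one of 29.2 kb at 384, and those of 52.5 and 52.7 kb at 264. Their folds were alike all the same, between 1.06 and 1.12 at 0 minutes and between 1.98 and 2.17 at 105. The level of KRT8 thus depends on the transcript chosen, and its course much less. At 300 minutes the direction was not shared: the shortest transcript was at 0.95 and the others at 1.04 and 1.09. In RefSeq the gene KRT8 overlaps KRT18, and no source used here says how the counting used strand.

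KRT19, the type I keratin of bile duct epithelium, had a different course from its relatives. It was at 690.1 FPKM at 0 minutes, 658 at 40, 649 at 80, 918 at 105, 1387 at 165 and 1935 at 300 minutes, against 351 in the asynchronous culture. The first 3 values were level, and each later one was higher than the one before. At 300 minutes KRT19 was 5.50-fold above the asynchronous culture and had the highest level of the 9 genes, whereas KRT8 and KRT18 were by then at 46.5% and 45.2% of their highest release values.

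Of the 6 keratins of simple epithelia, 1 was at least 2-fold above the asynchronous culture at 0 minutes and 1 below it. Equal medians gave 2 and 1, and quantile normalization 1 and 1. As deposited the gene above it was the intestinal keratin KRT20, at 8.61 FPKM against 2.62. After quantile normalization it was KRT19 instead. The gene below the culture was KRT23, at 14.4 against 55.3 FPKM at 0 minutes and at 4.81 at 300. KRT7, which is paired with KRT19 in bile ducts, stayed between 2.94 and 7.96 FPKM in every group, unlike KRT19. Among the remaining keratins, mostly of stratified epithelia and hair, 19 of 29 were kept, and at 0 minutes 9 of them exceeded the culture 2-fold while 2 fell short of it as far (6 and 2 at 300, with 4 and 3 at 0 and 3 and 1 at 300 minutes after quantile normalization). At 0 minutes these were 47.4% and 10.5% of the kept genes. All 29 together came to 183 FPKM at 0 minutes and 118 in the asynchronous culture, so these are folds between low values. Their median difference at 300 minutes, 0.10, was -0.07 after quantile normalization. KRT17, a keratin of basal and injured epithelium, was at 24.5 FPKM at 0 minutes, 43.6 at 40, 16.1 at 80, 8.18 at 105, 1.76 at 165 and 0.11 at 300 minutes, against 0.85. It was high early and near 0 late, unlike KRT19. KRT15 was higher throughout, at 28.1 FPKM at 0 and 32.7 at 300 minutes against 5.40.

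Genes for proteins that anchor keratins to junctions were mixed. Of 22 kept, 5 passed 2-fold upward at 0 minutes and 3 downward, and at 300 minutes 5 and 2. At 0 minutes these were 22.7% and 13.6%, with 7 and 3 genes under equal medians and 3 and 2 after quantile normalization. PLEC, the linker plectin, was at 435 FPKM at 0 minutes and 1144 at 105, compared with 202 in cycling cells, and JUP, plakoglobin, was at 251 and 352, compared with 69.7. Both were at least 2-fold higher at all 6 times. The desmosome genes PKP2 and PKP4 were lower at all 6 times, at 88.7 and 167 FPKM at 0 minutes against 500.4 and 1039. PKP3, another plakophilin, was 1.58-fold higher at 0 and 6.76-fold higher at 300 minutes.

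Other intermediate filament genes had 6 of 12 members above the culture by 2-fold and 3 below it at 0 minutes, with 1 and 3 at 300. After quantile normalization 2 were higher and 2 lower at 0 minutes, and the median at 300 minutes went from 0.08 to -0.10. Except for LMNA, those higher as deposited were low. DES, INA and NEFH were at 13.5, 15.5 and 19.95 FPKM at 0 minutes against 5.36, 4.28 and 8.64. PRPH and NEFM were at 3.97 and 2.12 against 1.22 and 0.47. Apart from LMNA, the upward folds at 0 minutes thus lie between low values. LMNA, the lamin A/C gene, was at 550.3 FPKM at 0 minutes and 1085 at 80 against 136, and at least 2-fold higher at all 6 times. LMNB1, of the B-type lamins, was lower at all 6 times, at 67.3 FPKM at 0 minutes against 304. NES, the nestin gene, was also lower throughout, at 593 FPKM at 0 minutes against 2195. VIM, the vimentin gene, was at 2135 FPKM at 0 minutes and 4238 at 105 against 1422, so that it was highest at the same time as KRT8 and KRT18.

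CD44 was at 206 FPKM at 0 minutes, 217 at 40, 197 at 80, 262 at 105, 421 at 165 and 356 at 300 minutes, against 23.3 in the asynchronous culture. The first 3 values were close together and the last 3 higher, with the highest at 165 minutes, 17.4-fold above the culture. Of its 8 transcripts, 7 had identical values, among them the longest form with the variable exons and the short standard form, so these data do not separate the splice forms of CD44. The remaining transcript, with a span of 84.0 kb, was 9.06-fold higher at 0 minutes, against 8.04-fold for the others.

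In the hyaluronan system around CD44, 6 of 21 genes stood 2-fold or more above cycling cells at 0 minutes and 2 below, with a median of 0.52 (9 and 1 with equal medians, 7 and 1 after quantile normalization). At 80 minutes 11 were higher and 0 lower, beside 19.4% and 10.8% of all genes. Equal medians gave 9 and 0 there, and quantile normalization 6 and 1. At 300 minutes 4 were higher and 2 lower. HAS2, a hyaluronan synthase, was at 37.4 FPKM at 0 minutes, 43.6 at 40, 48.9 at 80, 66.9 at 105, 156 at 165 and 204 at 300 minutes, against 16.2. Like CD44 it was at least 2-fold higher at all 6 times, and its largest values were late. LYVE1, a receptor related to CD44, was at 19.2 FPKM against 3.53 at 0 minutes, and TNFAIP6, a hyaluronan-binding protein induced by inflammation, at 24.96 against 5.46. HYAL2, a hyaluronidase, was at 61.4 FPKM at 0 minutes against 225. EZR, the gene for ezrin, which couples CD44 to actin, was at 1203 FPKM at 0 minutes and 1936 at 80 against 823, a fold of 1.46 and 2.35.

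GPRC5A was at 184 FPKM at 0 minutes, 287 at 40, 256 at 80, 339 at 105, 366 at 165 and 402 at 300 minutes, against 23.1 in the asynchronous culture. Like S100A6 it dipped between 40 and 80 minutes and was highest at the end, 16.7-fold above the culture. Its relatives GPRC5B and GPRC5C were higher too but by less, and GPRC5B, like GPRC5A, was highest at 300 minutes. GPRC5B was at 56.1 FPKM at 0 and 247 at 300 minutes against 28.5, and GPRC5C at 296 and 148 against 144, with 589.6 at 105 minutes. Of the 17 genes of this family and of retinoic acid handling, 6 were 2-fold or more above cycling cells at 0 minutes and 3 below (8 and 1 with equal medians, 4 and 2 after quantile normalization), and 5 and 2 at 300. CRABP2, a carrier of retinoic acid, was at 51.5 FPKM against 14.2 at 0 minutes, and the receptor RARG at 13.2 against 4.28. The receptor partner RXRA was at 28.3 against 79.9.

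COL7A1 was the lowest of the 9 genes in every group. It was at 87.4 FPKM at 0 minutes, 126 at 40 and 80, 224 at 105, 263 at 165 and 173 at 300 minutes, against 7.34 in the asynchronous culture. Its highest value, at 165 minutes, was 31.7-fold above the culture and 2.99-fold above 0 minutes. Of 40 collagen genes, 6 exceeded cycling cells 2-fold at 0 minutes and 3 were as far below, and 5 and 3 at 300. At 0 minutes 15% of collagens were thus higher, near the 14.1% of all genes, and the counts were 13 and 2 with equal medians and 3 and 2 after quantile normalization. The collagen median at 0 minutes was 0.52, but -0.05 after quantile normalization, and at 300 minutes 0.14 and -0.04. COL1A1 was at 25.4 FPKM at 0 minutes against 3.002, whereas COL27A1, at 30.3 against 161, and COL5A2, at 121 against 511, were lower. COL17A1, the transmembrane collagen of the hemidesmosome, stayed between 1.61 and 2.95 FPKM in all groups.

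The RefSeq sequence before the start of COL7A1, a gene higher at every time, and of S100A11, higher by less, are shown for comparison of their promoters. COL7A1 is given as chr3:48595330-48595579 and S100A11 as chr1:152037036-152037254, both GRCh38.p14 and the minus strand, 5′ to 3′. Capitals mark GC boxes (GGGCGG or its complement CCGCCC) and the letters of a TATA box on the opposite strand (TTTATA). The S100A11 sequence stops 31 bases short of the RefSeq start, where GENCODE annotates an exon.
COL7A1: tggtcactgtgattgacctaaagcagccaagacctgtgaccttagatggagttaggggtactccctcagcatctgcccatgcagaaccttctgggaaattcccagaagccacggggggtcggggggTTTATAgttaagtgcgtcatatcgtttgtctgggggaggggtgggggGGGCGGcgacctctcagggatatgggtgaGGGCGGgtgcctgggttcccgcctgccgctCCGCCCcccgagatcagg
S100A11: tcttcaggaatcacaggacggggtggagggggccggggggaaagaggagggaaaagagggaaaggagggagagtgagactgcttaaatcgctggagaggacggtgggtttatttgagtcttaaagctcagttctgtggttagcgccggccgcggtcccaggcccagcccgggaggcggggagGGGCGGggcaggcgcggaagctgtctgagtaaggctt

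The 250 bases before the start were searched on both strands for 6 of the 9 genes that matched the promoter table: S100A6, S100A10, S100A11, CD44, KRT8 and COL7A1. A GC box was found in 5 of them, S100A6, S100A10, S100A11, CD44 and COL7A1, and in 42.6% of all 35116 promoters, or 53.4% of those of kept genes. The windows of S100A6, S100A10 and CD44 lie wholly within exons that GENCODE annotates for the same genes. It occurred 3 times each before S100A6 and COL7A1, where overlapping matches were counted separately. The letters of a TATA box, TATAAA, were found for 1, COL7A1, and in 10.7% of all promoters (8.31% for kept genes). In COL7A1 they lie on the opposite strand at position -124 from the start, and whether they act as a TATA box was not tested. The AP-1 site TGANTCA, the cAMP response element TGACGTCA and the TEAD site GGAATG were found in 0 of the 6, and in 6.57%, 1.65% and 11.9% of all promoters (5.49%, 2.03% and 10.7% for kept genes). A motif without a match means only that these letters are not in this window. Only 1 start was searched per gene. KRT8 and CD44 have transcripts of different spans, and any other starts of these genes were not searched. The KRT8 window was chr12:52926470-52926719, and which of its transcripts starts there was not checked. No pair of the motifs overlapped in the sequences shown.

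Between neighbouring release times none of the 9 genes differed by 2-fold in either direction. Over the whole table, 3.24% of genes were past 2-fold upward and 2.05% downward at 40 against 0 minutes, 13.5% and 2.72% at 80 than at 40, and 2.02% and 2.57% at 105 than at 80. The shares were 2.27% and 5.27% at 165 against 105 minutes and 3.04% and 4.1% at 300 against 165. From 0 to 40 minutes 8 of the 9 were higher (64.5% of all genes) and KRT19 was slightly lower. From 40 to 80 minutes 5 were higher (61.4% of all genes), but 0 after quantile normalization: S100A6, CD44, GPRC5A and KRT19 were lower as deposited, by folds of 0.89, 0.91, 0.89 and 0.99. From 80 to 105 minutes all 9 were higher, with COL7A1 at 1.77-fold, against 45% of all genes. If every EU pulse lasted 40 minutes, the labelling windows of these groups overlap, so their values do not cover separate intervals. From 105 to 165 minutes 5 of the 9 were higher (40.6% of all genes). Among them CD44 was 1.60-fold and KRT19 1.51-fold higher, while S100A10, KRT8 and KRT18 were at 0.66, 0.68 and 0.68 of the earlier value. From 165 to 300 minutes 3 were higher (S100A6, KRT19 and GPRC5A), against 48.1% of all genes and 5 of the 9 after quantile normalization.

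Highest release values fell at 105 minutes for S100A10, S100A11, KRT8 and KRT18, at 165 minutes for CD44 and COL7A1, and at 300 minutes for S100A6, KRT19 and GPRC5A, as for 12.5%, 13.1% and 21.1% of all genes. None of the 9 was highest at 0, 40 or 80 minutes, times at which 16.4%, 13.8% and 23.1% of all genes had their highest value. Comparing 300 with 0 minutes, KRT19 was 2.80-fold and GPRC5A 2.18-fold higher, 2 of the 9 past 2-fold, beside 18.9% of all genes. None was 2-fold lower (8.82% of all genes), and 7 were higher by any amount (57.1%). In level, with KRT8 as the mean of its transcripts, the order in the asynchronous culture ran from KRT18 through KRT8, S100A10, KRT19, S100A11, CD44, GPRC5A and S100A6 to COL7A1. At 300 minutes it ran from KRT19 through S100A11, KRT18, S100A6, S100A10, KRT8, GPRC5A and CD44 to COL7A1. By its shortest transcript KRT8, at 1110 in the asynchronous culture and 1057 FPKM at 300 minutes, would precede KRT18 in both orders and S100A11 in the second. With no replicate values, which neighbours in these orders differ beyond their spread could not be tested. CD44 and GPRC5A, at 23.3 and 23.1 FPKM in the asynchronous culture, were closest.

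Genes with the most similar course were found by the same root mean square difference, among genes with at least 50 FPKM in some group. For CD44 the nearest was BNIP5, at 0.09, with 26.6 FPKM at 0 minutes, 50.9 at 165 and 1.80 in the asynchronous culture. F2RL1, a protease-activated receptor, was among the 3 nearest to CD44, GPRC5A and COL7A1 alike, at 0.25, 0.20 and 0.22. It stood at 493 FPKM at 0 minutes and 1235 at 165, against 57.0. C19orf33 was nearest to GPRC5A, at 0.13, with 266 FPKM at 0 minutes and 475 at 300 against 36.3. S100A6 had no close match: CSF3, a colony-stimulating factor listed at 0 FPKM in the asynchronous culture, was nearest at 0.44, then UCN2 at 0.45 and GEM at 0.52.

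S100A10, S100A11, KRT8, KRT18 and KRT19 had closer matches than S100A6, as CD44 and GPRC5A did. KRT8 and KRT18 were nearest to PEA15, a phosphoprotein of the ERK pathway, at 0.05 and 0.06. PEA15 stood at 451 FPKM at 0 minutes, 892 at 105 and 437 at 300, against 436. S100A10 was nearest to the fatty acid elongase gene ELOVL1, at 0.07. S100A11 was nearest to TMEM89, at 0.12, with the kinase gene PLK2 next at 0.12. KRT19 was nearest to TMEM106A, at 0.11, and then to MVP, the major vault protein gene, at 0.12, which stood at 55.1 FPKM at 0 minutes and 140.2 at 300 against 27.8.

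The 3 genes of the table on each side of every member in the RefSeq order came to 43 genes that are not members. Of these, 11 were at least 2-fold above the asynchronous culture at 0 minutes (14.1% of all genes) and 12 at 300 (9.84%), and 21 were above it at all 6 times (27.2%). By size, 4 were at least 2-fold above it at all 6 times (2.73% of all genes): CD44-DT, UCN2, MIR614 and KRT15. CD44-DT, the divergent transcript next to CD44, was at 44.0 FPKM at 0 minutes, 42.1 at 40, 32.96 at 80, 36.8 at 105, 30.8 at 165 and 26.1 at 300 minutes, against 1.46. It was between 11.01-fold and 18.2-fold above the culture, beside 8.15-fold to 17.4-fold for CD44, but was highest at 0 minutes rather than at 165. UCN2, the urocortin 2 gene beside COL7A1, was at 43.5, 53.9, 44.9, 77.8, 87.7 and 50.2 FPKM at the 6 times, against 1.57. It was also the second most similar gene to COL7A1, at 0.25, among the genes that reached 50 FPKM. MIR614, a microRNA gene that overlaps GPRC5A, was at 770.2 FPKM at 0 and 1158 at 300 minutes against 34.7.

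**Figure D4:**
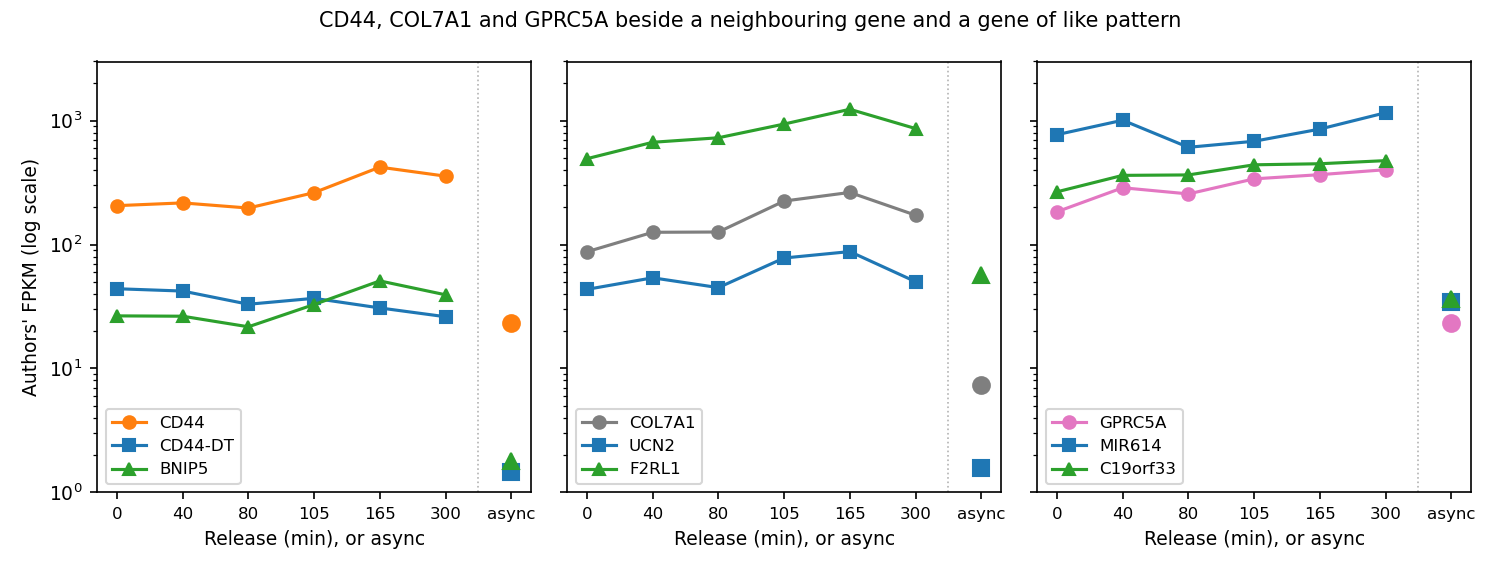
Authors' FPKM (vertical axis, log scale) of CD44, COL7A1 and GPRC5A beside a neighbouring gene (blue squares) and a gene of similar course (green triangles), with release times joined by lines and the asynchronous culture as a separate larger point. In each panel all 3 genes have their lowest value in the asynchronous culture; CD44-DT stands at 44.0 FPKM at 0 and 26.1 at 300 minutes, and CD44 at 206 and 356.

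Neighbours of S100A6 did not share its level, but all except S100A9 were above the asynchronous culture at all 6 times, as 27.2% of all genes were. S100A4 reached 10.5-fold at 300 minutes, and PGLYRP4, S100A12, S100A5 and LOC101928034 were at most 3.90-fold above it. Some of these folds lie between low values: LOC101928034 was at 2.58 to 9.40 FPKM against 1.67, and PGLYRP4 at 3.28 to 6.69 against 2.95. At their lowest, PGLYRP4 and S100A12 were only 1.08-fold and 1.10-fold above the culture. S100A9 was below it at all 6 times. S100A5 and S100A4, on one side, were at 11.5 and 9.40 FPKM at 0 minutes, and S100A12 and S100A9, on the other, at 6.38 and 2.98, against 435 for S100A6. Around KRT19, the keratin genes KRT15, KRT13, KRT32, KRT14 and KRT16 were all at or below 32.8 FPKM in every group. EIF4B, a translation factor gene beside KRT18, was below its asynchronous level at all 6 times, at 560.3 FPKM at 0 minutes against 1069.8.

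The hepatocyte identity of the culture was visible in the asynchronous group, with ALB at 2295 and AFP at 3964 FPKM, and these markers were lower during the release. Of 14 hepatocyte markers, 13 were at least 2-fold lower at 0 minutes and 12 at 300. Their summed level was 24623 FPKM in the asynchronous culture and 3219 to 6461 in the release groups, and none was listed at 0. Of 10 bile duct markers, 0 were past 2-fold upward and 4 downward at 0 minutes (2 and 2 with equal medians), and their sum, KRT19 included, was 5074 FPKM against 2182 to 5547. At 300 minutes KRT19 was the 1 marker at least 2-fold higher. Stroma and endothelium markers summed to 149 FPKM against 332 to 561, with 4 of 11 kept markers past 2-fold upward and 1 downward at 0 minutes (5 and 0 with equal medians, 2 and 2 after quantile normalization). LUM, the lumican gene, made up most of that sum. THY1 was listed at 0 FPKM in the asynchronous culture, as it also was at 0 and 165 minutes. Blood markers summed to 421 FPKM against 214 to 289, with 5 of 10 higher and 1 lower at 0 minutes (3 and 1 after quantile normalization). HBB and HBA1 were listed at 0 in the asynchronous culture. During the release HBB was also at 0 except for 3.05 FPKM at 40 minutes, while HBA1 was at 8.42 to 13.2 FPKM. LYZ made up 364 FPKM of the asynchronous sum, and the other blood markers summed to 56.8 FPKM there against 90.5 to 179 in the release. What part these marker differences have in the values of the 9 genes was not tested.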

How the data were processed

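Bedtools, TopHat, Bowtie2 2.2.9 and bcl2fastq were used with build hg19, per the submitters' processing notes. No source used here gives their roles, the counting, its use of strand, any background subtraction or how libraries were pooled. Per the file headers, the deposited FPKM values have 1 column for each of 7 groups. Of 48205 transcripts, 97.8% matched a gene through the RefSeq table of GRCh38.p14, used for names, order and span lengths. A gene's value was the mean of its distinct transcript values. Genes reaching 1 FPKM in 3 or more groups were kept, and folds were taken on log2(FPKM + 1). With 1 value per group no test was run, and 2-fold was used to describe size. Groups without EU are not analysed here. Spike-in samples have no column of their own, and no source says if they enter the asynchronous one. Hence no capture background stands beside these values. Read totals are not given. Nonzero values of microRNA genes, multiplied by gene length, repeated most often at 1 step (27 of 776 at 0 minutes), taken as 1 read; 205 lay below it, so whole reads were not recovered. Relative depth by that step was 1.00 at 0 minutes, 1.15 at 40, 1.49 at 80, 1.53 at 105, 1.75 at 165, 1.66 at 300 and 1.87 in the asynchronous culture. Apart from S100A6, every value of the 9 genes came to at least 105 steps. Such errors cover counting alone. Alternatives tried were other pseudocounts, 2 other scalings, 2 other summaries of transcripts and 2 other filters. The members and gene lists were chosen with earlier results of these data known. The genes named were the 9 members and, from each list, at most 4 with the largest difference at 0 minutes and 2 at 300 minutes against the asynchronous culture, with at least 10 FPKM in either group. The 3 most similar genes per member and 3 neighbours on each side in the RefSeq order were added. Partner genes such as ANXA2, AHNAK, PLEC, VIM, EZR, KRT7, KRT20, COL17A1, S100A13, S100P and GPRC5C were named after their values were seen. So were DES, PRPH, NEFM and NEFH. The fold counts and searches were tested on simulated data. Python 3.11.15 and pandas 2.3.3 were used.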

Additional observations from a re-analysis of the deposited data

How the results depend on the processing

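Of 432 differences of the 9 genes from the asynchronous culture under 8 alternatives, 15 moved by over 1.5 times and none of those past 2-fold changed direction. Sign changes were 5, all in values short of 2-fold: S100A10 (0.12 and 0.37) and KRT18 (0.30 and 0.48) at 0 minutes with equal medians and quantile normalization, and KRT8 (0.06) at 300 minutes with the median transcript. Equal medians and quantile normalization also put S100A11 (1.001 and 1.27) and KRT19 (1.33 and 1.56) past 2-fold at 0 minutes. A pseudocount of 10 FPKM lowered the S100A6 difference to 4.30 at 0 and 5.19 at 300 minutes and that of COL7A1 to 2.49 and 3.40. It also lowered the share of all genes at least 2-fold higher to 4.31% at 0 minutes, 5.76% at 40, 12.6% at 80, 7.24% at 165 and 5.81% at 300, while equal medians gave 22.98% at 0 minutes. Quantile normalization left 0 of the 9 genes higher at 80 than at 40 minutes and 5 higher at 300 than at 165. No paired analysis was possible because the table has 1 pooled value per group, so neither the replicate block nor leaving out replicates could be run.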
